A study of Mus musculus with 3 samples.

Results

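AP-1 is a family of transcription factors that bind DNA as pairs of proteins joined through a leucine zipper. Its 10 genes examined here (Fos, Fosb, Fosl1, Fosl2, Jun, Junb, Jund, Atf3, Maff and Batf) were taken as a list of names and found by symbol among the 55536 genes of the deposited tables. Total RNA with ribosomal RNA depleted was sequenced from the cytosolic fraction of C57BL/6J mouse bone-marrow-derived macrophages, primary cells grown from marrow. All 3 libraries belonged to 1 group: the cells were given lipid A, the Tlr4-binding part of bacterial lipopolysaccharide, at 100 ng/ml for 12 hours, were washed and left for 12 hours without it, and were then given 100 ng/ml again for 60 minutes. Each library came from 1 µg of RNA. The labels count the libraries as biological replicates 1, 2 and 3 under a single donor entry, with sex and age not collected, and leave it unsaid whether separate animals were used. P-values therefore measure only the spread between these samples, which may be technical. Untreated and once-stimulated cells were not analysed here, so the values are levels and not responses.

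Fos proteins cannot pair with each other and bind DNA as partners of Jun proteins, whereas Jun proteins can also pair among themselves. Fos, Fosb, Jun, Junb and Atf3 are classical immediate early genes, transcribed within minutes of a stimulus by factors already present in the cell, and the mRNA of several of them is short-lived. In macrophages, Toll-like receptors reach these genes through the MAP kinases, and AP-1 acts beside NF-κB on inflammatory genes.

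Expected counts (reads shared out among transcripts by the quantifier) on genes totalled 50807046, 53364168 and 46546422 in replicates 1, 2 and 3. All 8 macrophage markers stood above 1 TPM (a level per transcript length, as a share of a fixed total), and the T cell, dendritic cell and mast cell or basophil lists, of 4 genes each, had 0 above it. Of 4 B cell markers 1 stood above 1 TPM, Cd79b; of 7 neutrophil markers 2 did, S100a8 and S100a9, while Ly6g was listed at 0. The libraries differed in 2 ways that recur below. All 3 nuclear RNAs checked were highest in replicate 3, with Malat1 at 112, 90.6 and 452 TPM in replicates 1, 2 and 3, Neat1 at 10.9, 7.10 and 29.7, and Rn7sk at 27778, 26912 and 68232. All 5 stromal markers were highest in replicate 2, and their summed level was 0.06, 6.92 and 3.00 TPM, with Col1a1 and Col3a1 listed at 0 in replicate 1.

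The 10 genes spanned the range from a mean of 0.00667 TPM for Fosl1 to 249 TPM for Junb. By the limma test of log2(TPM + 1) against 1 TPM, 7 genes stood above 1 TPM, beside 44.5% of the 20685 genes tested: Fos, Jun, Junb, Jund, Atf3, Maff and Batf. Fosl1 stood below it, as did 50.4% of the genes tested, and Fosb and Fosl2 were not placed on either side. The median of the 10 mean levels was 39.4 TPM, and the median over all genes tested was 0.68 TPM. In bulk RNA, fewer cells expressing a gene and less of its RNA per cell cannot be told apart.

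**Figure D1:**
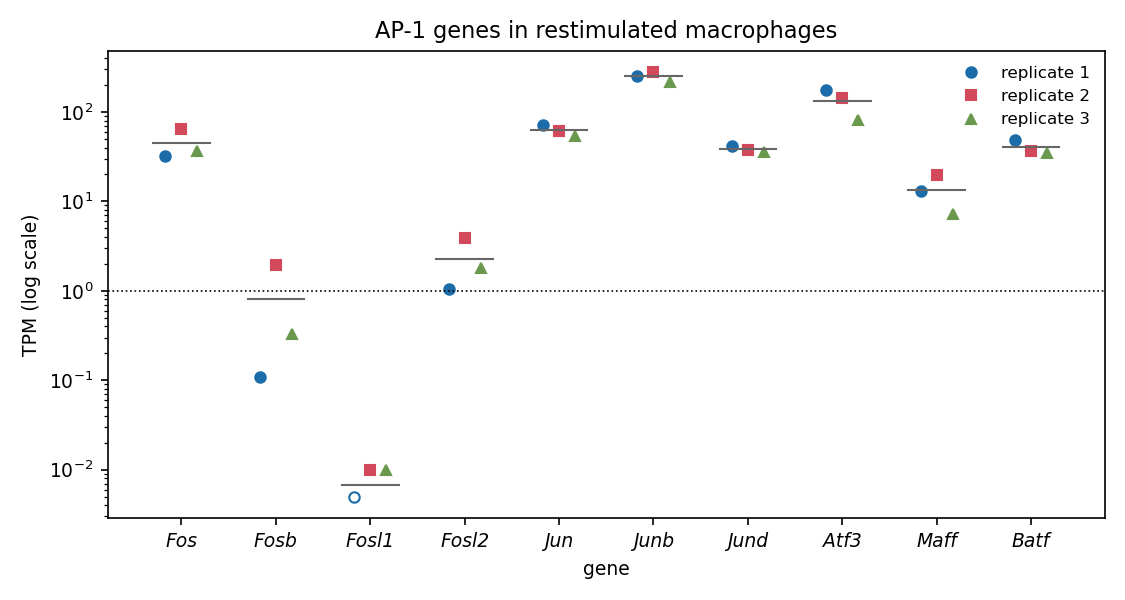
TPM (log axis) of each AP-1 gene in replicates 1 (circles), 2 (squares) and 3 (triangles), with the mean of the 3 libraries as a bar and 1 TPM as a dotted line; the value of 0 for Fosl1 in replicate 1 is drawn as an open circle at the foot of the axis. Junb was highest at a mean of 249 TPM, 8 genes lay above the line in every library (Fosl2 only just, at 1.04 TPM in replicate 1), and Fosb crossed it, at 0.11 TPM in replicate 1 and 1.96 in replicate 2.

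Several AP-1 genes are known to be driven through cyclic AMP response elements (CREs) close to the start of transcription, so the upstream sequence of 4 members is shown. Fos and Fosb stand for the Fos family, Jun for the Jun family, and Maff carries the complete palindromic element. The 150 bases before the start of the leading transcript in the annotation are from RefSeq (build GRCm38.p6), 5′ to 3′ on the gene's strand. That start is also the RefSeq start for Fos, Jun and Maff, whereas for Fosb the stretch ends 7 bases before the RefSeq start. They lie at chr12:85473740-85473889 (+) for Fos, chr7:19310052-19310201 (-) for Fosb, chr4:95052223-95052372 (-) for Jun and chr15:79347370-79347519 (+) for Maff. Capitals mark TGACG, TGACGTCA, TGACATCA and TATAAA.
Fos: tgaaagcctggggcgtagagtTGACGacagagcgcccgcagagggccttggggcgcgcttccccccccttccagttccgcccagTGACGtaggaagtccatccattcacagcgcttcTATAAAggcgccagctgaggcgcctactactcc
Fosb: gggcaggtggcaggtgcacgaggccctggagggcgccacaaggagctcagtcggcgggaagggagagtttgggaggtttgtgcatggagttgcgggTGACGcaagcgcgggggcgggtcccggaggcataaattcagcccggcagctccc
Jun: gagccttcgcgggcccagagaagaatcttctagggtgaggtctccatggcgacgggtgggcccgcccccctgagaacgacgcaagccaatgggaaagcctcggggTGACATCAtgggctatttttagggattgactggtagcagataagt
Maff: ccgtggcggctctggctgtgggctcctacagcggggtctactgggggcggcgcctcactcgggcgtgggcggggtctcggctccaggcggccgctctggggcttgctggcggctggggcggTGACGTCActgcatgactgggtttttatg

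RefSeq promoters of 300 bases (250 before the start and 50 after) were at hand for 9 of the 10 genes, not for Fosl1. For 7 of them the RefSeq start lay within 60 bases of the start of the gene's leading transcript in the annotation, which excludes Fosl2 and Jund. TGACG, the core of the CRE, was found on either strand in 6 of these 7 promoters (Fos, Fosb, Junb, Atf3, Maff and Batf). The share over all 32851 promoters of the same length was 20.8%. In Atf3 the match lay at -7 to -3 from the RefSeq start. The leading Atf3 transcript begins 7 bases before that start, so the match is inside the transcript and not upstream of it. The full element TGACGTCA, which contains TGACG on both strands, was found in Maff, at -29 to -22 from the RefSeq start (as all positions here), and in 1.79% of all promoters. Jun held TGACATCA at -45 to -38, a variant that 3.62% of promoters held. TATAAA on the gene's strand was found in Fos (-33 to -28) and Junb (1 to 6), against 8.32% of promoters. The RefSeq start of Junb lies at -30 from the start of its leading transcript, so its TATAAA precedes the latter start. TGACTCA, the classical AP-1 site, searched on both strands, was in none of the 7 and in 5.2% of promoters. A CArG box was in none of the 7 and in 1.63% of promoters, and a κB site in Fos and Fosb and in 8.46% of promoters, both searched on both strands. Sequence outside the window was not searched, so a site missing here may lie farther from the start. These matches describe the letters of the window and not the binding of a factor.

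Fos (ENSMUSG00000021250.13, chr12:85473890-85477273, + strand) encodes c-Fos, the founding member of the family. It stood at 32.05, 64.61 and 36.97 TPM in replicates 1, 2 and 3, from 4540, 8918 and 5003 counts, with a mean of 44.5 ± 17.6 TPM (SD, n = 3). Replicate 2 was well above the others, and the quantifier's own intervals, whose level is not stated, did not overlap between libraries (30.9 to 33.1, 61.2 to 66.5 and 34.4 to 38.5 TPM). Its log2 level lay 4.44 ± 0.21 (SE) above 1 TPM (limma, adjusted p = 1.57e-06).

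The transcript tables divided Fos differently in each library. Fos-201, the coding transcript of 4 exons and 2108 bases, held 99.85%, 73.5% and 82.24% of Fos in replicates 1, 2 and 3. The rest was nearly all Fos-202, a non-coding processed transcript of 3 exons and 631 bases, at 0%, 26.25% and 17.4%. It lacks the first exon of Fos-201, and 607 of its bases lie in exons of Fos-201, so that 24 bases of the intron before exon 2 are its own. The beginning of Fos-202 at chr12:85474911-85474970 (+) is set beside the matching stretch of Fos-201, bases 268 to 327 of that transcript across the junction of its first and second exons, because this is where the start of Fos-202 departs from Fos-201; capitals mark where they differ in origin, intron in Fos-202 and first exon in Fos-201 (GRCm38, GENCODE M21 transcripts).
Fos-202: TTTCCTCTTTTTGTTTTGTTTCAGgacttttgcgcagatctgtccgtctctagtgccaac
Fos-201: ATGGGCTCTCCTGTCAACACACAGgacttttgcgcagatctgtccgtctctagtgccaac

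Fos-202 took 0, 654 and 216 expected counts in replicates 1, 2 and 3, a small part of the reads, but TPM is per length and the transcript is short. Fos-201 alone stood at 32.0, 47.5 and 30.4 TPM, so replicate 2 was still highest and the order of replicates 1 and 3 turned. The second transcript tables, made directly from the reads, gave Fos-202 a share in every library, at 22.1%, 42.9% and 32.6% of Fos. In counts per fixed library total (CPM) scaled by trimmed mean of M values (TMM), which do not depend on transcript length, Fos was at 92.5, 166 and 105, a highest-to-lowest ratio of 1.79 against 2.02 in TPM.

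**Figure D2:**
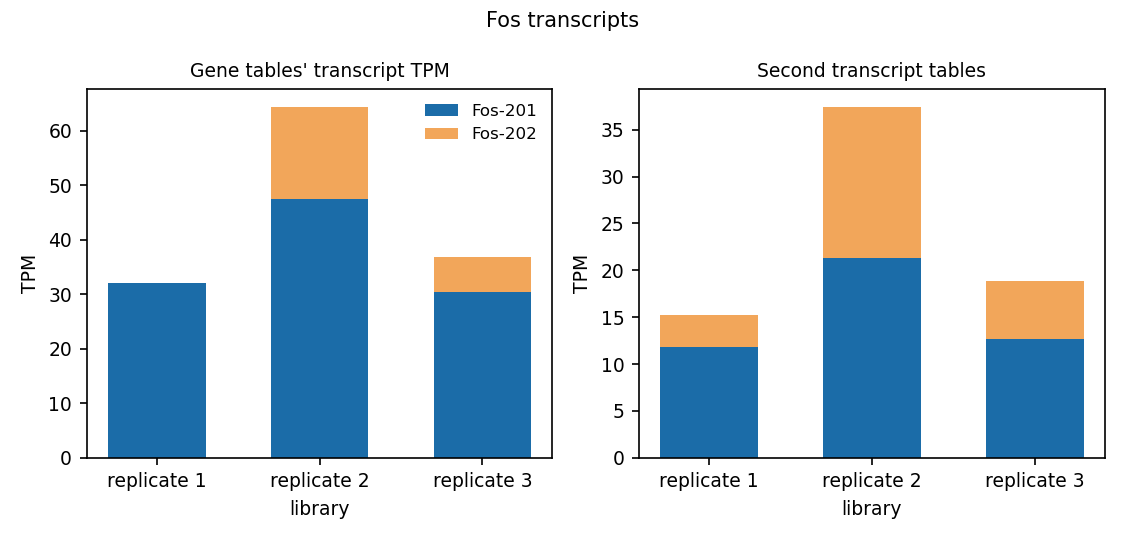
TPM of Fos-201 and Fos-202, stacked, in each library, in the transcript tables that match the gene tables (left) and in the second transcript tables (right; the axes differ in range). Fos-202 was 0 in replicate 1 on the left but present in every library on the right, and replicate 2 was highest in both.

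Fosb (ENSMUSG00000003545.3, chr7:19302696-19310051, - strand), a close relative of Fos, stood at 0.11, 1.96 and 0.33 TPM, from 29, 584 and 98 counts. The highest library had 17.8 times the TPM of the lowest, and 18.3 times the TMM-scaled CPM. The quantifier's intervals were 0.103 to 0.247, 1.77 to 2.23 and 0.299 to 0.466 TPM, again without overlap. Its mean of 0.80 ± 1.01 TPM rested on replicate 2, since it was 0.22 TPM without that library, and Fosb was then called below 1 TPM (limma, adjusted p = 0.0118, against 0.431 with all libraries). Fosb-201, the full-length coding transcript, held 88.42%, 77.98% and 70.48%. Fosb is also spliced into a shorter form, known as ΔFosB, that loses the end of the protein; Fosb-206 and Fosb-207 lack the same 140 bases of the last exon (chr7:19305007-19305146). They took 11.06% and 8.42% in replicate 2, or 17.5 and 50.1 counts, and were listed at 0 in replicates 1 and 3, where the gene had few reads. The second tables gave Fosb-206 10.9%, 19.7% and 0%, and Fosb-207 0%, 3.30% and 0%.

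Fosl2 (ENSMUSG00000029135.10, chr5:32135801-32157842, + strand), which encodes Fra-2, stood at 1.04, 3.94 and 1.81 TPM, from 490, 2282 and 928 counts. Replicate 2 was highest and replicate 1 lowest, as for Fos and Fosb, with a ratio of 3.79 in TPM and 4.24 in TMM-scaled CPM. At a mean of 2.26 ± 1.50 TPM (SD, n = 3) Fosl2 was not placed against 1 TPM (limma, adjusted p = 0.0662); without replicate 2 its mean was 1.43 TPM. It was called above 1 TPM when TPM was rescaled over nuclear protein-coding genes (limma, adjusted p = 0.0126). Its leading coding transcript held 98.72%, 99.71% and 95.46% of the gene.

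Fosl1 (ENSMUSG00000024912.6, chr19:5447547-5455946, + strand), which encodes Fra-1, had 0, 1.08 and 1.05 expected counts, under the limit of 3 counts that a count of 0 allows (0.0590, 0.0562 and 0.0645 CPM, counting error only). It was called below 1 TPM (limma, adjusted p = 3.02e-11), and it was not detectable at this depth beyond that limit. Its transcript shares carry no information and are not described.

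Fos, Fosb and Fosl2 shared the order replicate 2, 3, 1, and so did the summed stromal markers given above (0.06, 6.92 and 3.00 TPM). Their part in the levels of the 3 Fos genes was not tested. By TMM-scaled CPM, 4 of the 8 macrophage markers were highest in replicate 1, 0 in replicate 2 and 4 in replicate 3. Over all genes with 30 or more counts, 36.1% were highest in replicate 2 by that measure. Fos made up 96.5%, 91.6% and 94.5% of the summed TPM of the Fos family, which was 33.2, 70.5 and 39.1 TPM.

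Jun (ENSMUSG00000052684.4, chr4:95049034-95052222, - strand) encodes c-Jun, the main partner of c-Fos and a target of the JNK kinases. It stood at 71.8, 61.7 and 53.4 TPM, from 16008, 16847 and 13219 counts, a mean of 62.3 ± 9.23 TPM (SD, n = 3). The libraries lay close together, with a highest-to-lowest ratio of 1.35 in TPM and 1.18 in TMM-scaled CPM. Fos and Jun levels overlapped: the ratio of Fos to Jun TPM was 0.446, 1.05 and 0.693. That holds for Fos with the short Fos-202 included, since Fos-201 alone was under Jun in every library.

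Junb (ENSMUSG00000052837.6, chr8:84974484-84978718, - strand), a Jun protein with weaker activating power of its own than c-Jun, was the highest of the 10 genes in every library. It stood at 254, 280 and 214 TPM, from 30264, 41019 and 28346 counts, a mean of 249 ± 33.0 TPM (SD, n = 3). Its share of the summed TPM of the Jun family was steady, at 69.0%, 73.7% and 70.7%.

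Jund (ENSMUSG00000071076.6, chr8:70698949-70700616, + strand), the Jun gene known for steady expression in many resting cells, stood at 42.1, 38.0 and 35.6 TPM, from 4576, 5077 and 4282 counts. It had the smallest relative spread of the 10, a mean of 38.6 ± 3.29 TPM (SD, n = 3) and a highest-to-lowest ratio of 1.05 in TMM-scaled CPM. Jun, Junb and Jund are the genes here whose leading transcript is a single exon, and that transcript held 100% of each in all libraries. Jun and Jund have no other annotated transcript, so their share could not differ from 100%.

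The summed TPM of the Jun family was 367, 380 and 303, and its ratio to that of the Fos family was 11.1, 5.39 and 7.75, a mean of 8.07 ± 2.85 (SD, n = 3). Jun family RNA was the more abundant in every library, and replicate 2, where the Fos genes were high, had the lowest ratio. The second transcript tables gave 7.16 ± 2.46.

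Atf3 (ENSMUSG00000026628.13, chr1:191170296-191218039, - strand), a member of the ATF/CREB family known to restrain Toll-like receptor responses, stood at 176, 144 and 81.1 TPM, from 23256, 23357 and 11906 counts. Replicate 3 was low, at 249 TMM-scaled CPM against 474 and 433, and the mean was 133 ± 48.1 TPM (SD, n = 3). Only 1 gene of the 10, Junb, had a higher mean. The coding transcript of 4 exons and 1984 bases that begins inside the gene, at base 191183340, held 100%, 100% and 99.79%, and the coding transcript from the distant upstream start at base 191218039 reached 0.21% in replicate 3 and was listed at 0 elsewhere.

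Maff (ENSMUSG00000042622.14, chr15:79346621-79359076, + strand), a small Maf protein with no activation domain, stood at 12.9, 19.7 and 7.31 TPM, from 1679, 3144 and 1050 counts. Replicate 2 was highest and replicate 3 lowest, a ratio of 2.69, with a mean of 13.3 ± 6.18 TPM (SD, n = 3). Of 4 annotated transcripts with different starts, Maff-201 held 98.84%, 98.86% and 98.22%, and it is the one that begins just after the TGACGTCA element printed above. Atf3 and Maff were both lowest in replicate 3, also with TPM rescaled over coding genes and in the second tables. Jun was lowest in replicate 3 by each of these too, with a smaller spread. That library had the most Malat1, Neat1 and Rn7sk RNA, and the part of that difference in the levels was not tested.

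Batf (ENSMUSG00000034266.6, chr12:85686669-85709087, + strand), which pairs with Jun proteins and is known to work with IRF factors, stood at 48.8, 36.6 and 35.0 TPM, from 2692, 2495 and 2123 counts. Replicates 2 and 3 were close and replicate 1 was higher, and the mean was 40.2 ± 7.55 TPM (SD, n = 3). Batf-201 held 99.65%, 99.81% and 99.55%.

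Set in order of mean TPM, the genes ran Junb, Atf3, Jun, Fos, Batf, Jund, Maff, Fosl2, Fosb, Fosl1. Of the 9 neighbouring pairs, 5 had ranges that did not overlap over the 3 libraries: Junb over Atf3, Atf3 over Jun, Jund over Maff, Maff over Fosl2, and Fosb over Fosl1. Junb exceeded Atf3 by 0.97 ± 0.44 and Atf3 exceeded Jun by 1.04 ± 0.38 as log2 ratios within a library (mean ± SD, n = 3). Jun lay above Batf and Jund without overlap, but the place of Fos among these 3 genes was not settled. With all its transcripts counted, Fos exceeded Jun in replicate 2, and it was under Batf in replicate 1. Batf and Jund overlapped too. The coding Fos-201 alone, at 32.0, 47.5 and 30.4 TPM in replicates 1, 2 and 3, lay under Jun without overlap. In the second transcript tables, Jund lay above Batf without overlap. Jund stood there at 21.3, 25.5 and 21.8 TPM in replicates 1, 2 and 3, and Batf at 19.3, 18.3 and 15.6. Jun, at 28.6, 30.5 and 24.5 TPM, overlapped Jund in those tables. Fosl2 exceeded Fosb in all 3 libraries, by 2.23 ± 1.13 as a log2 ratio, although their ranges overlapped. With 3 libraries an exact two-sided sign-flip permutation test cannot go below p = 0.25, so no neighbouring pair could pass it.

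All 9 genes with at least 30 counts in sum varied between the libraries beyond counting noise (chi-square test on expected counts scaled to library totals, 2 degrees of freedom, Benjamini-Hochberg adjusted p under 0.05), beside 69.3% of the 13075 genes tested. At this depth even small differences pass, so the size of the spread tells more. Jund was at the edge, with an adjusted p of 0.0368 in that chi-square test, which became 0.0673 with TMM scaling and 0.0754 with DESeq2 size factors. Leaving out 1 library ended the call for Jun (without replicate 3), for Batf (without replicate 1) and for Jund (without replicate 1 or 2).

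The SD of log2(TPM + 1) over the libraries split the genes into wide and narrow. It was 0.75 for Fosb, 0.66 for Maff, 0.65 for Fosl2, 0.57 for Atf3 and 0.52 for Fos, between the 97.5th and the 99.2nd percentile of the genes with 30 or more counts. It was 0.25 for Batf, 0.21 for Jun, 0.19 for Junb and 0.12 for Jund, between the 44.9th and 83.7th percentile. The median over the 9 genes was 0.52, against 0.13 over all 13075 genes and 0.19 over the 4123 of them at a mean of at least 10 TPM.

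**Figure D3:**
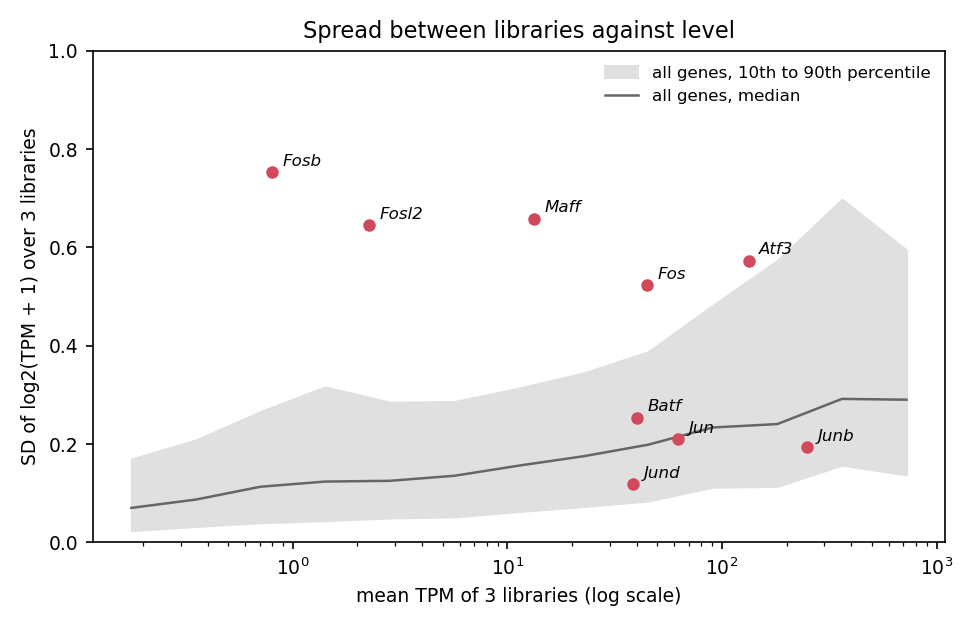
SD of log2(TPM + 1) over the 3 libraries against mean TPM (log axis) for the 9 AP-1 genes with at least 30 counts (points), with the median (line) and the 10th to 90th percentile (grey) of all such genes in bins of mean TPM. Fosb, Fosl2, Maff and Fos lie above the grey band, Atf3 at 0.57 lies a little above its edge, and Batf, Jun, Junb and Jund lie inside it. The 90th percentile of the bin from 128 to 256 TPM is the value of Atf3 itself.

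Replicate 2 held the highest TPM of 5 of the 9 genes (Fos, Fosb, Fosl2, Junb and Maff) and of 23.8% of all genes with 30 or more counts. Replicate 1 held the highest TPM of the other 4 (Jun, Jund, Atf3 and Batf), and of 60.1% of all genes, and replicate 3 of 0, against 16.0%. TPM is a share of a fixed total, so these shares move with the rest of the library. In TMM-scaled CPM, where replicates 1, 2 and 3 were highest for 33.6%, 36.1% and 30.3% of genes, replicate 2 was highest for 6 of the 9, now with Jund, replicate 1 for 3 and replicate 3 for 0. The second transcript tables put 8 of the 9 highest in replicate 2, where 60.0% of all genes were highest, and 1, Batf, in replicate 1 (17.9% of all genes), with 0 in replicate 3 (22.2%). With TPM rescaled over nuclear protein-coding genes, 7 were highest in replicate 2, 2 in replicate 1 and 0 in replicate 3, against 37.9%, 19.9% and 42.2% of all genes. The library in which a member was highest thus moved with the scaling for Jun and Jund, and for Atf3 in the second tables.

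**Figure D4:**
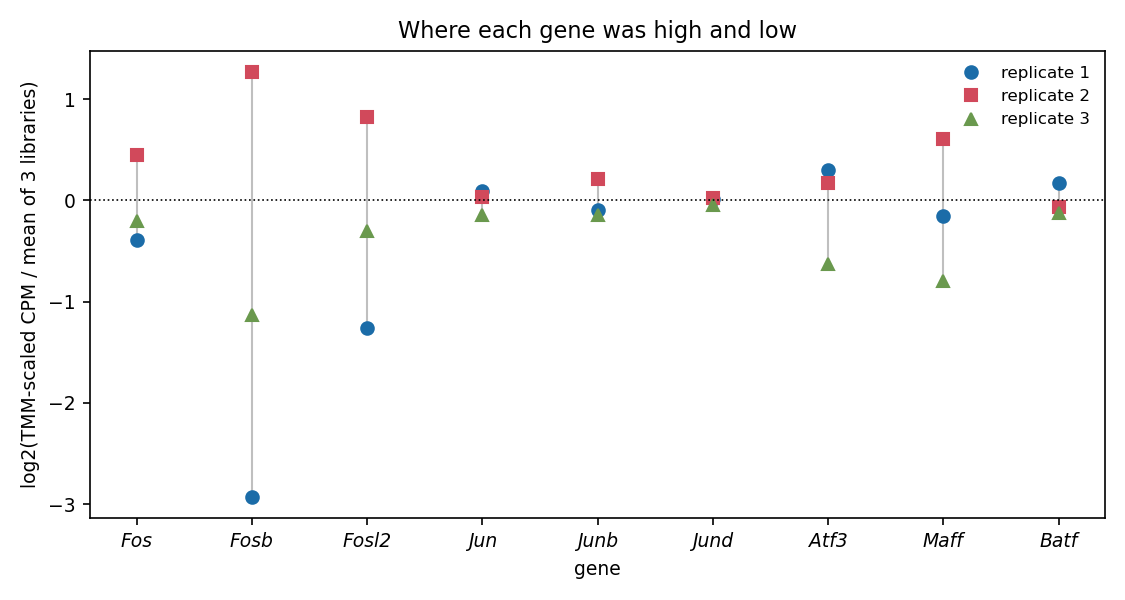
Log2 of TMM-scaled CPM relative to the mean of the 3 libraries, for the 9 AP-1 genes with at least 30 counts, in replicates 1 (circles), 2 (squares) and 3 (triangles). Fos, Fosb and Fosl2 have replicate 2 at the top and replicate 1 at the bottom, whereas for the other 6 genes replicate 3 is lowest.

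The 3′ untranslated regions of the leading transcripts were searched for the AU-rich pentamer ATTTA, part of the elements through which proteins such as Zfp36 shorten the life of mRNA. It was found in 9 of the 10 genes, all but Batf, and in 65.5% of 9035 protein-coding genes with a mean of at least 1 TPM. The longer TATTTAT was in 8 of 10 (not in Junb or Batf) and in 26.7% of those genes. Per kilobase of 3′ untranslated region, Fos held 4.91 ATTTA, Junb 4.12, Maff 3.28 and Jun 3.24, beside a median of 1.26, while Fosb held 0.466 in a region of 2145 bases. A 30-base stretch of the Fos region (GENCODE M21, GRCm38, chr12:85477091-85477120, + strand) shows overlapping copies in capitals.
Fos site: acgtttttattgtgttttcaATTTATTTAt

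Most genes known to act around AP-1 were present. Of 31 other leucine zipper factors of the ATF, CREB, MAF and C/EBP type, 26 stood above 1 TPM, 3 below, 1 was not placed and 1, Hlf, was listed at 0. Their median was 11.8 TPM, and Nfe2l2, the regulator of antioxidant genes, had the highest mean at 116 ± 31.8 TPM (SD, n = 3), next to Ddit3 at 115 ± 23.8, which was the higher of both in replicates 1 and 3. Batf2 and Batf3, named here after their values were seen, stood at 20.2 ± 7.35 and 1.42 ± 0.521 TPM beside 40.2 ± 7.55 for Batf.

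Of 14 MAP kinases and their upstream kinases, 12 stood above 1 TPM, with a median of 13.4 TPM. Mapk3, which encodes ERK1, was highest at 35.2 ± 3.82 TPM, and Mapk10, the JNK gene known from neurons, was listed at 0. All 7 factors known to switch on Fos and Jun (Srf, the Elk factors and Mef2 factors) stood above 1 TPM, from Elk1 at 4.61 ± 0.503 to Mef2a at 17.9 ± 2.18 TPM (SD, n = 3).

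Of 8 genes that act on AP-1 proteins, 7 stood above 1 TPM, and the deubiquitinase Usp28, not placed, was lowest at 0.81 ± 0.177 TPM (SD, n = 3). All 6 genes of mRNA decay control did too, from Khsrp at 15.7 ± 0.691 TPM to Zfp36 at 527 ± 131 (SD, n = 3).

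Of 20 genes known as AP-1 targets, 14 stood above 1 TPM, 4 below and 2 were not placed, with a median of 15.2 TPM. Tnf was highest at 1206 ± 332 TPM (SD, n = 3), and the metalloproteinase genes Mmp3 and Mmp10 were lowest, with a value above 0 in replicate 2 alone, of 0.01 TPM. Among the 18 with at least 30 counts, 10 were highest in replicate 2, 6 in replicate 1 and 2 in replicate 3, by TPM and by TMM-scaled CPM alike, and their median SD of log2(TPM + 1) was 0.41. NF-κB acts on many of these genes too, so their levels are not a readout of AP-1 alone.

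The genes whose pattern over the libraries was most like the median of the 9 AP-1 genes were Sri, Trmt112, Ndel1, Sub1 and Aff4, out of 4125 with a mean of at least 10 TPM. Likeness was the Euclidean distance between deviations of log2(TPM + 1) from each gene's mean over 3 libraries, and it ran from 0.0167 for Sri to 0.0235 for Aff4. The median AP-1 deviation, taken in each library separately, was 0.06, 0.18 and -0.21 in replicates 1, 2 and 3. In replicate 3 it was the value of Junb itself. Junb lay close to the median, at 0.03, 0.18 and -0.21. Other members did not, among them Fos at -0.40, 0.59 and -0.20 and Batf at 0.29, -0.11 and -0.18. With 3 libraries and 4125 genes close matches are easily found, so the list is a description only.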

How the data were processed

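Per the text deposited beside the tables, every library has 1 gene table and 2 transcript tables, made on mm10 with GENCODE M21. Expected counts were deposited by the authors, per the file headers. The authors gave TPM per effective length, per the file headers, and their interval bounds have no stated level. The authors deposited each transcript's percent of its gene. The second transcript tables hold separate estimated counts and TPM. No aligner, quantifier, version or strand setting is given in the sources used here, so antisense and overlapping reads cannot be told apart. Deposited TPM is a share of a total, of which nuclear protein-coding genes held 34.5%, 29.0% and 27.5% in replicates 1, 2 and 3. Entries that are not genes held 0.378%, 0.0931% and 0.0772% of counts and were left out.

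R 4.3.3 with limma 3.58.1 tested log2(TPM + 1), pseudocount 1, against 1 TPM, for genes above 0 in any library, with Benjamini-Hochberg adjustment over all genes. Variation was tested by chi-square on rounded expected counts of genes with 30 or more in sum. TMM factors came from edgeR 4.0.16, size factors from DESeq2 1.42.0. Counts were whole (within 0.005) in all libraries for 7 of the 10 genes, not for Jun, Jund and Fosl1. Tests were checked on simulated data with counting noise alone (chi-square) or the same spread for every gene (limma), which is simpler than these data. Sequences came from RefSeq promoters and GENCODE transcripts. Named genes were the 10, the highest and lowest of each accompanying list, Malat1, Neat1, Rn7sk and the 5 most alike; marker genes and Batf2 and Batf3 were added for description, and some list values are not reported here. The members and lists were chosen with earlier results of these data known. Python 3.11.15, pandas 2.3.3, numpy 2.4.6 and matplotlib 3.10.9 were used.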

Additional observations from a re-analysis of the deposited data

How the results depend on the processing

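The 7 genes above 1 TPM numbered 7 with the level set at 5 TPM, with a pseudocount of 0.1, with genes under a mean of 10 counts removed, in the second tables and with each library left out, and 8 with TPM rescaled over nuclear protein-coding genes. Genes varying beyond counting noise numbered 8 under TMM scaling, DESeq2 size factors and no count minimum, 9 with at least 100 counts or the second tables, and 7 to 8 with a library left out. Neighbouring pairs apart numbered 6 in the second tables, where Jund stood above Batf, and 5 to 7 with a library left out. The Jun to Fos family ratio was 6.57 to 9.41 with a library left out. Genes whose leading transcript held at least 95% in mean numbered 7, 5 in the second tables, and 7 to 8 with a library left out. The share over all genes was not computed. Jun and Jund, 2 of these genes, have 1 annotated transcript each, so their 100% was fixed by the annotation. The 5 and the 8 include Fosl1, on about 1 count, and over the 9 genes with at least 30 counts they were 4 and 7. The count highest in replicate 1 moved from 4 to 2 with rescaled TPM and to 1 in the second tables, and that in replicate 2 from 5 to 7 and to 8; over all genes the share highest in replicate 2 moved from 23.8% to 37.9% and to 60.0%, and the cause was not tested. Mean levels in the second tables were 0.442 to 0.593 times those of the gene tables for the 9 measured genes. No paired analysis was possible because there was 1 group.

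Depth limits Fosl1 and the transcript shares of Fosb, which rest on 29 counts in replicate 1. Fosb and Fosl2 rest on replicate 2 for most of their mean.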

Other observations

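The transcript tables disagreed on minor forms of some AP-1 genes. In the second tables, a non-coding Atf3 transcript of 517 bases, all of them in exons of the leading transcript, held 0%, 18.2% and 3.06% of Atf3 in replicates 1, 2 and 3, while the tables that match the gene tables listed it at 0 in all 3. A Fosl2 transcript of 1707 bases with a retained intron held 15.3% of Fosl2 in replicate 3 in the second tables and 1.81% in the others. The share of Maff-201 in the second tables was 95.7%, 92.2% and 89.9%.

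Of 5 genes that overlap a member, all lie on the opposite strand. Junos, antisense to Jun over 689 bases, had 11.3, 13.2 and 9.24 expected counts beside 16008, 16847 and 13219 for Jun. Gm11175 overlaps Jund over 919 bases and had 174, 109 and 193 expected counts. Prdx2, which overlaps the Junb gene over 351 bases, stood at 90.6, 72.6 and 71.8 TPM. Jund had 6309, 7308 and 6176 counts in the second tables, against 4576, 5077 and 4282 in the gene tables.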
